A study of Mus musculus with 6 samples.

Results

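The regions described here are stretches of open chromatin that were well covered in mouse NIH3T3 fibroblasts carrying an inactive ribozyme and held few reads for their level in the same parental cells carrying the active ribozyme. They were chosen by the measured values themselves, as regions whose mean over the 3 inactive libraries was at least 40 and whose mean over the 3 active libraries was at most 0.25 times that. The rule found 348 regions among the 31540 that reached 40 in the inactive line, and among 52957 regions in all. Values are read counts per region that the authors scaled by library and rounded to whole numbers, called scaled read counts here.

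Both groups were NIH3T3 cells, an established mouse embryonic fibroblast line, edited at Actg1, which encodes gamma-actin of the cytoskeleton, so that intron 3 carries a T3H48 hammerhead ribozyme. In the active group, labelled ki-aT3H48, the ribozyme cuts the pre-mRNA that carries it. In the inactive group, labelled ki-iT3H48, the insert lacks that activity, so every library held a knock-in and neither group was unedited. Each group had 3 libraries, and the labels speak of stable genotyped lines without saying whether the libraries of a group were separate cultures or clones, so the spread between them may be technical. The ribozyme's activity and the identity of the line cannot be told apart, because each group shares 1 construct.

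ATAC-seq uses the Tn5 transposase, which cuts and tags DNA where it is not wrapped in nucleosomes, so reads pile up at promoters, enhancers and insulators. Promoters of genes used in every cell, which often hold many CpG dinucleotides, tend to be open in most cell types, whereas enhancers away from genes are open in some cell types and closed in others. In a bulk library, fewer cells with a region open and fewer open copies in each cell cannot be told apart. Closed is used here for few reads in the active line relative to the inactive one, and the number of DNA copies in each line was not tested.

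Promoters were a minority of the nearly closed regions, and their sequences show how unlike each other they were. The 250 bases before the RefSeq transcription start are printed below for 7 genes whose promoter regions were nearly closed, 4 with many CpG dinucleotides and 3 with few; capitals mark each CpG. All are from RefSeq on GRCm38.p6, the build of the sequence table, and run 5′ to 3′ along the gene. They lie at chr1:170644282-170644531 on the plus strand for Olfml2b, at chr10:8886071-8886320 on the minus strand for Sash1, at chr9:21852636-21852885 on the minus strand for Dock6, at chr14:93890680-93890929 on the minus strand for Pcdh9, at chr11:118401960-118402209 on the minus strand for Lgals3bp, at chr9:6168236-6168485 on the plus strand for Pdgfd, and at chr7:104465194-104465443 on the minus strand for Trim30a.
Olfml2b: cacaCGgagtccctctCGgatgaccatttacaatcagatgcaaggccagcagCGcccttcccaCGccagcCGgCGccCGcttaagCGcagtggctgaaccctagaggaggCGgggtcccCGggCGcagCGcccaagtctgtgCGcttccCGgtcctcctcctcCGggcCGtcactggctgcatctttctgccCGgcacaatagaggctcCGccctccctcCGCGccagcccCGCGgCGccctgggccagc
Sash1: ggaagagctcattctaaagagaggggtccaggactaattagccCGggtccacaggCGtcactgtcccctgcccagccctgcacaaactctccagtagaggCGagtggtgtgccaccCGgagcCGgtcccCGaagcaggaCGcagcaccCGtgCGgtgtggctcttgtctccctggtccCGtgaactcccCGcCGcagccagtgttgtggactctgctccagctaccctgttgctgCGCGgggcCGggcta
Dock6: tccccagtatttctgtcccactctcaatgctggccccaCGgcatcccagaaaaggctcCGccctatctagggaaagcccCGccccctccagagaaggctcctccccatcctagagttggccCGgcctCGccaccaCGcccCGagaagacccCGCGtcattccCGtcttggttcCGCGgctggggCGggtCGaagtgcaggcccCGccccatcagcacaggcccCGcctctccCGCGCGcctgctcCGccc
Pcdh9: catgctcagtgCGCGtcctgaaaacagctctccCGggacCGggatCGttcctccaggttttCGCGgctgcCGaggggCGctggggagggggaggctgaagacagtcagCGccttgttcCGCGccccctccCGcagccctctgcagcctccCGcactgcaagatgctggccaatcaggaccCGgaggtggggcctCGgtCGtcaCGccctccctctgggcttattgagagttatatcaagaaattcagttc
Lgals3bp: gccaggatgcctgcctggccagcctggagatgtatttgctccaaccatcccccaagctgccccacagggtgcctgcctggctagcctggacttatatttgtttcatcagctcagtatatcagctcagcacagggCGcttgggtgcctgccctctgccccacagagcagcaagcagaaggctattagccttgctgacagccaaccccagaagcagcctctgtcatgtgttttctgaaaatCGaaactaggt
Pdgfd: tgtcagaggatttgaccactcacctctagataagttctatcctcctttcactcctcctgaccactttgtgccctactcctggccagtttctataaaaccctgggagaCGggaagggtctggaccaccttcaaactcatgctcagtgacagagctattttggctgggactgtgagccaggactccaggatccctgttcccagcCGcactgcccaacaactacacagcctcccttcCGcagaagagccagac
Trim30a: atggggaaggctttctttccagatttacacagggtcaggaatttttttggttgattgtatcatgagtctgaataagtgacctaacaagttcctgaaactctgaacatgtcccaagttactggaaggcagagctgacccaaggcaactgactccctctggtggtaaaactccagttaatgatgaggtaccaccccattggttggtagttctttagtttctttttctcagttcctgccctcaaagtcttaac

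The stretch before Olfml2b held 23 CpG dinucleotides, that before Dock6 20, that before Pcdh9 18 and that before Sash1 15. The stretch before Pdgfd held 3, that before Lgals3bp 2, and that before Trim30a none. Of the 34 named genes with a nearly closed promoter region, 29 (85.3%) had an entry in the RefSeq table, matched by symbol or synonym. Where a gene had several starts, the most upstream was used. Matching was uneven by inactive level, with 23 of 24 genes under 100 matched and 7 of 11 at 100 or more. Lmx1b, with a region on each side of 100, is in both counts. The 29 therefore lean towards the weaker promoters. Over these 29, the median ratio of observed to expected CpG was 0.53, and 8 (27.6%) reached 0.6, a usual mark of a CpG island. Of the printed genes, Olfml2b, Dock6 and Pcdh9 reached it and Sash1, at 0.57, did not, so the printed sequences are not in proportion to the 29. Over the 4872 matched promoters (80.6% of 6045 named genes) that stayed open in both lines, the median was 0.77 and 76.6% reached 0.6. Over all 27025 entries of the table the median was 0.38 and 34.5% reached it. The matched nearly closed promoters thus lay between the other sets in their median, and below both in the share that reached 0.6. The same check against all promoter regions at 40 or more is void, because only 79.7% of their genes matched. So is one restricted to promoters under 100 in the inactive line, where 75.8% matched, so no comparison at a like level is given. Over all regions, promoters or not, those open in both lines had a median inactive level of 173, beside 63.3 for the nearly closed ones. The levels of the matched promoters themselves were not compared.

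A search of both strands of the same 250 bases counted short motifs by their letters alone, and no motif lies within another. GGGCGG, the GC box, was in 14 of the 29 (48.3%), beside 64.6% of promoters open in both lines and 33.0% of all entries. CCAAT was in 15 (51.7%), beside 39.1% and 34.5%. CCGGAAG, the core of an ETS site, was in 1 (3.4%), beside 15.8% and 7.1%. The AP-1 motif TGANTCA was in 2 (6.9%), beside 3.8% and 6.9%, and TATAAA was in 3 (10.3%), beside 5.6% and 13%. CACGTG was in 1 (3.4%), beside 9.3% and 6.0%; GGAATG was in 4 (13.8%), beside 9.8% and 12.6%; TGACGTCA was in 1 (3.4%), beside 3.0% and 1.6%. With 29 sequences, 1 gene is 3.4% of the set, and these shares describe letters in a window, not binding.

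The levels chosen by the rule were low in the active line without being zero in most places. Summed over the 348 regions, the active libraries held 4399, 4226 and 4877 scaled reads and the inactive libraries 29010, 29872 and 29664. These sums were 0.0645% to 0.0753% of the table's total in the active libraries and 0.451% to 0.461% in the inactive ones, whose totals were alike at 6433944 to 6548535 over all 6. The median region stood at 63.3 in the inactive line, with quartiles at 50.3 and 92.1, and at 10 in the active line, with quartiles at 6.33 and 14.3. The median active-to-inactive ratio was 0.167.

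How far a region had closed varied widely within the set. At a ratio of 0.02 or less there were 9 regions, 38 lay between 0.02 and 0.05, 40 between 0.05 and 0.1, 62 between 0.1 and 0.15, 84 between 0.15 and 0.2, and 115 between 0.2 and 0.25. From 0.05 up, where the classes were equally wide, the count was still rising at the limit, with 166 further regions between 0.25 and 0.30. The limit of the rule therefore cut through a continuous range. Below 0.05 the classes were narrower, and the 38 regions between 0.02 and 0.05 were nearly as many as the 40 between 0.05 and 0.1. Of those 38, 24 lay in runs of neighbouring closed regions, described below. Whether the lowest ratios form a group of their own was not tested. In 64 regions the active mean was under 5, in 27 at least 1 active library was at 0, and in 13, all strong in the inactive line, the active mean was itself 40 or more. The median region kept the same inactive level, 61.0 to 68.8, in every one of these classes of ratio.

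**Figure D1:**
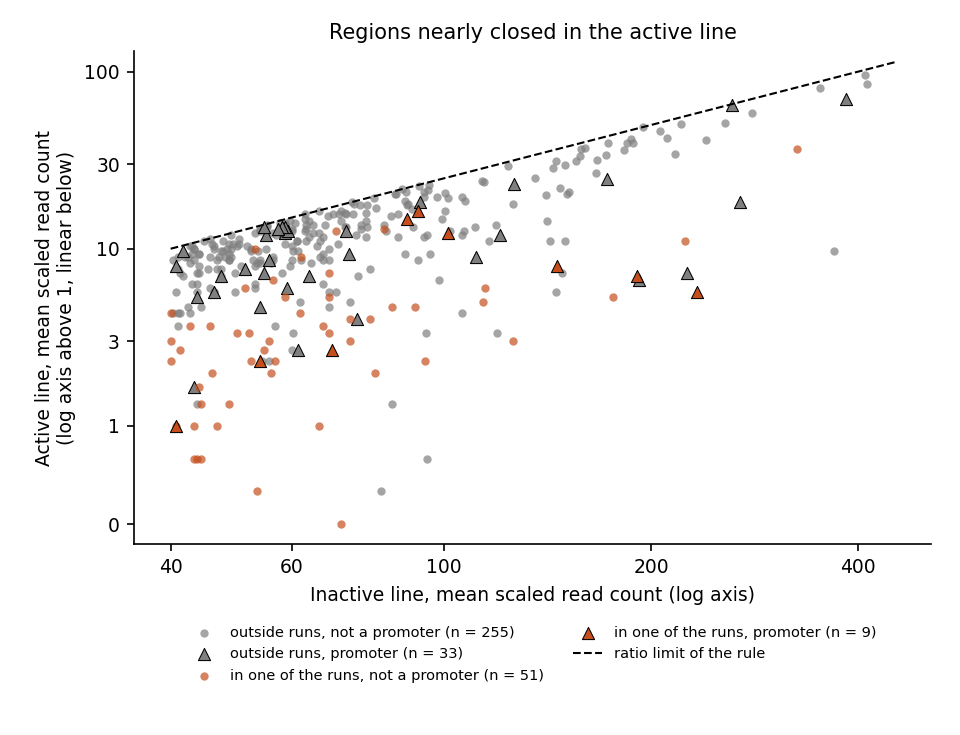
Mean scaled read count in the inactive line (horizontal, log axis) against the active line (vertical, log axis above 1) for each of the 348 nearly closed regions; triangles are promoters, colour marks the 60 regions in runs of neighbouring closed regions, and the dashed line is the limit of the rule. Regions in runs lie lower, with a median ratio of 0.0502 beside 0.184 for the others.

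Every active library lay below every inactive library in all 348 regions. Such a complete separation, with the active line lower, was found in 16089 of the 52957 regions of the whole table. The rule favours it, so nothing is read from it for the 348. In 206 of the 348 the highest active library was at most 0.25 times the lowest inactive one. All 348 were also called lower by limma, beside 29.2% of all 51253 tested regions; the rule used the same values, so nothing is read from that count. Between the inactive libraries the median coefficient of variation was 9.36%, beside 6.61% for the other regions at 40 or more, whose median level was higher, 127.3 beside 63.3; the median SD was 6.47 beside 8.74. Active replicate 2 was coarser at the low end, since its smallest value above 0 was 2 and 26 of the whole numbers below 60 never appeared in it; it held 24 of the regions at 0, beside 6 and 7 in the other active libraries.

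For description, regions were also chosen by the same limits on 2 replicate numbers and read in the libraries of the third. The full rule used all of these libraries, which may be technical repeats, and 307 to 326 of the regions chosen in this way were among the 348. With replicate 1 held out, 396 regions were chosen, and 289 of them (73.0%) were at or below 0.25 in the held-out pair of libraries, and 388 (97.98%) at or below 0.5. With replicate 2 held out, 286 of 344 (83.1%) were at or below 0.25 and 340 (98.8%) at or below 0.5. With replicate 3 held out, the counts were 275 of 389 (70.7%) and 383 (98.5%). The median held-out ratios were 0.182, 0.160 and 0.195. No region chosen in this way had a held-out ratio above 0.781. Because the libraries and most of the regions are shared with the full rule, these shares are no check of the set on new data.

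At the edges of the rule, values inside and outside could hardly be told apart. Just inside the ratio limit, a region at chr1:20756093-20756955 read 18, 18 and 19 in the active and 80, 78 and 62 in the inactive libraries, and 2 others had means of 15.7 beside 62.7 and 48.7 beside 194.7. Just outside, the means were 58.7 beside 234, 58.3 beside 232.3 and 18.3 beside 73. At the level limit, 3 regions with an inactive mean of exactly 40 were in, at active means of 2.33, 3 and 4.33, and 3 at 39.7 were out, at 2.67, 4.67 and 9.33. These and the following coordinates are those of the deposited table, on mm39.

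The nearly closed regions were mostly away from genes. A promoter, taken as 1 kb or less from the annotated start in the table, was the place of 42 of 348 (12.1%, 95% exact binomial interval 8.84% to 15.96%). Among all regions at 40 or more in the inactive line, 31.4% were promoters, and among those open in both lines 40.7%. The table named no gene for 267 of the 348 (76.7%), and for 53.0% of the regions at 40 or more; its gene annotation reached at most 5982 bp from a start. Put the other way, 0.424% of the promoters at 40 or more were nearly closed (42 of 9918), 0.794% of the regions from 1 kb to that limit (39 of 4911), and 1.60% of those without a gene (267 of 16711). Regions nearly closed in the opposite direction, with the inactive line at 0.25 times or less of an active mean of at least 40, numbered 1409, of which 7.59% were promoters.

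The gap depended on level, and promoters are among the strongest regions. From 40 to 60 in the inactive line, 2.51% of the regions were nearly closed (152 of 6067), from 60 to 100 1.79% (123 of 6856), from 100 to 200 0.667% (55 of 8241), and from 200 up 0.174% (18 of 10376). Within the lowest of these classes promoters were 13.2% of the nearly closed regions and 8.18% of all. In the others they were 7.32% beside 11.9%, 14.5% beside 28.0% and 27.8% beside 60.7%. The lower share of promoters was thus seen at 60 and above and not at 40 to 60.

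The regions were narrow, as other regions of their level were. Their median width was 496.5 bp, with quartiles at 390.5 and 637.2 and a range of 159 to 1631, beside 628 for all regions at 40 or more and 703 for those open in both lines. By class of inactive level, the medians of nearly closed and of all regions were 421.5 and 411 at 40 to 60, 506 and 500 at 60 to 100, 639 and 641 at 100 to 200, and 730 and 932 from 200 up. The medians were close except in the highest class, which had 18 regions. Of regions under 300 bp, 1.77% were nearly closed, and of those 1000 bp and wider, 0.155%.

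**Figure D2:**
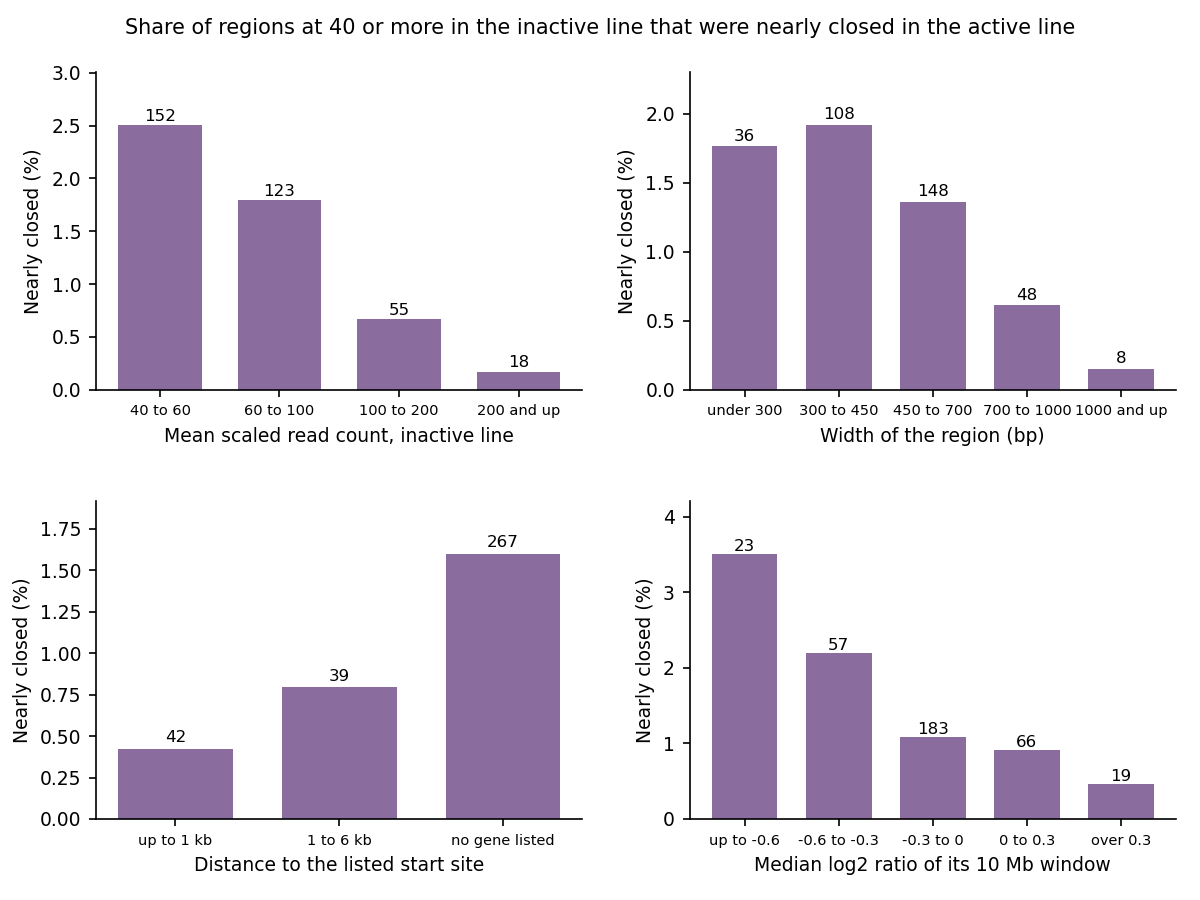
Percent of the regions at 40 or more in the inactive line that were nearly closed in the active line, by inactive level, by width, by distance to the listed gene start and by the median log2 ratio of the region's 10 Mb window; numbers above the bars count the nearly closed regions. The share falls with level, is lowest (0.155%) in the widest regions, is highest (1.60%) without a listed gene, and is highest (3.51%) in the windows that were lowest in the active line.

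The table gave a gene for 81 of the regions. Protein-coding genes were 53 of them (65.4%), long noncoding RNA genes 15 (18.5%) and processed pseudogenes 7, beside 78.7% coding and 11.2% long noncoding among all regions at 40 or more with a gene. A symbol was given for 54 regions, which belonged to 46 genes, or 0.463% of the 9928 named genes with a region at 40 or more. Pathway lists held them at about that same share. Over all lists together 8 genes of 1855 had a nearly closed region (0.431%, beside 0.463% of all named genes). None did among 349 ribosomal, proteasome, translation and splicing genes, 225 transporters, 103 genes of lipid metabolism, 84 actins, myosins and actin-binding proteins, 75 genes of the Wnt, TGF-beta and Notch pathways, 55 G protein-coupled receptors, 45 ion channels, 33 serum-induced transcription factors and 5 imprinted genes. With so low a share over all genes, lists of these sizes can hold none for their size alone, and nothing is read from their absence.

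The genes that were hit are described by their known roles. Among genes for secreted and surface proteins, the strongest promoter region was that of Olfml2b, an olfactomedin-domain protein of the extracellular matrix, at chr1:170471738-170472375, 44 bp from the start. It read 68, 60 and 83 in the active libraries and 385, 368 and 399 in the inactive ones, with means of 70.3 ± 11.7 and 384 ± 15.5 (SD, n = 3). Although its active level exceeded the inactive level of most other members, that was 18.3% of its own inactive level.

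Sod3, the secreted superoxide dismutase, read 5, 12 and 7 against 148, 139 and 151 at its promoter, chr5:52520718-52521357, and 4, 5 and 9 against 116, 110 and 118 at a region 3055 bp away. Lgals3bp, a secreted galectin-binding glycoprotein, read 24, 12 and 34 against 121, 126 and 132, with a wide spread among its active libraries. The promoter of Pcdh9, a protocadherin that holds cells together, read 7, 4 and 10 against 184, 190 and 199. All 3 were far apart between lines, and Pcdh9 kept 3.67% of its inactive level, the Sod3 promoter 5.48% and Lgals3bp 18.5%.

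Clmp, a junctional adhesion molecule of the immunoglobulin family, read 7, 7 and 13 against 112, 106 and 116. Pdgfd, a ligand of the platelet-derived growth factor receptors, read 2, 2 and 4 against 65, 69 and 50. Cd46, which restrains complement at the cell surface, read 2, 7 and 9 against 54, 50 and 73. Pdgfd was the only gene with a nearly closed region among the 83 on the list of growth factors, their receptors and guidance cues, Pcdh9 of 62 adhesion genes, Cd46 of 139 immune genes and Olfml2b of 107 matrix genes.

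Adm, the gene of the vasodilator peptide adrenomedullin, had a small promoter region that read 0, 0 and 5 in the active and 46, 32 and 52 in the inactive libraries. Other parts of the gene kept more. A region 2767 bp from the start read 144, 136 and 128 against 205, 192 and 219, a log2 difference of -0.59 (SE 0.095) in limma's fit.

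Genes for regulators of small GTPases and of signalling are described next; no list covered them, and they were put together after their values were seen. Sash1, a scaffold protein of Toll-like receptor signalling, read 2, 7 and 8 against 244, 225 and 230 at its promoter, chr10:8761486-8762218, and 2, 4 and 4 against 60, 47 and 49 at a region 4683 bp from the start. Dock6, an exchange factor that activates Rac1 and Cdc42, read 11, 4 and 7 against 233, 216 and 228 at chr9:21763680-21764359, 89 bp from the start. These were the most closed of the strong promoters, at 2.43% for Sash1 and 3.25% for Dock6. Plekhg5, an exchange factor for RhoA, read 12, 12 and 17 against 116, 116 and 125 at a region 1510 bp from the start. Rab40b, a small GTPase of the Rab family, read 10, 12 and 6 against 70, 72 and 76 at its promoter.

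Of 121 developmental transcription factors, 2 had a nearly closed region by the list. Nr3c2, the mineralocorticoid receptor, read 4, 4 and 9 against 154, 158 and 124 at a region 2737 bp from its start, chr8:77628542-77629071. Tbx4, a T-box factor of hindlimb development, read 12, 9 and 9 against 47, 45 and 55 at a region 2220 bp away, and its own promoter, too weak in the inactive line to enter the set, read 5, 4 and 5 against 34, 42 and 32. Both regions of Tbx4 were thus low. Lmx1b, a LIM homeodomain factor that patterns the dorsal limb, was not on that list and had 3 nearly closed regions: at its strongest the libraries read 11, 11 and 15 against 85, 103 and 116, 344 bp from the start. Another region of Lmx1b, 2652 bp from the start, lay just outside the rule with means of 22.3 and 87.3.

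Several genes best known from cilia and germ cells also had nearly closed promoters, each at a modest inactive level except Spa17. Spa17, a sperm surface protein, read 6, 5 and 9 against 185, 181 and 209. Tmem231, a protein of the ciliary transition zone, read 2, 5 and 5 against 79, 66 and 79. Mei4, which is needed for meiotic DNA breaks, read 6, 2 and 6 against 55, 52 and 55. Dnah6, an axonemal dynein heavy chain, read 15, 12 and 11 against 66, 81 and 69. No list covered these genes, and they were grouped after their values were seen.

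Among the remaining strong promoters, that of Tmem204, a claudin-like membrane protein, was the least closed. It read 64, 67 and 63 against 254, 275 and 256, which is 24.7% and near the limit of the rule. Spats1 read 24, 16 and 15 against 87, 96 and 94. A list of 385 gene models named Gm or Rik, antisense genes and host genes had 2 members, both annotated as protein-coding. Gm45871 read 10, 16 and 10 against 119, 124 and 119 at its promoter. 4930550C14Rik read 1, 0 and 0 against 79, 69 and 95 at a region 2992 bp from its start, the lowest ratio of any member with a symbol. An unnamed long noncoding RNA gene, ENSMUSG00000086537, had the strongest promoter region without a symbol, at chr2:174136973-174137672, with 16, 19 and 20 against 269, 251 and 287.

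**Figure D3:**
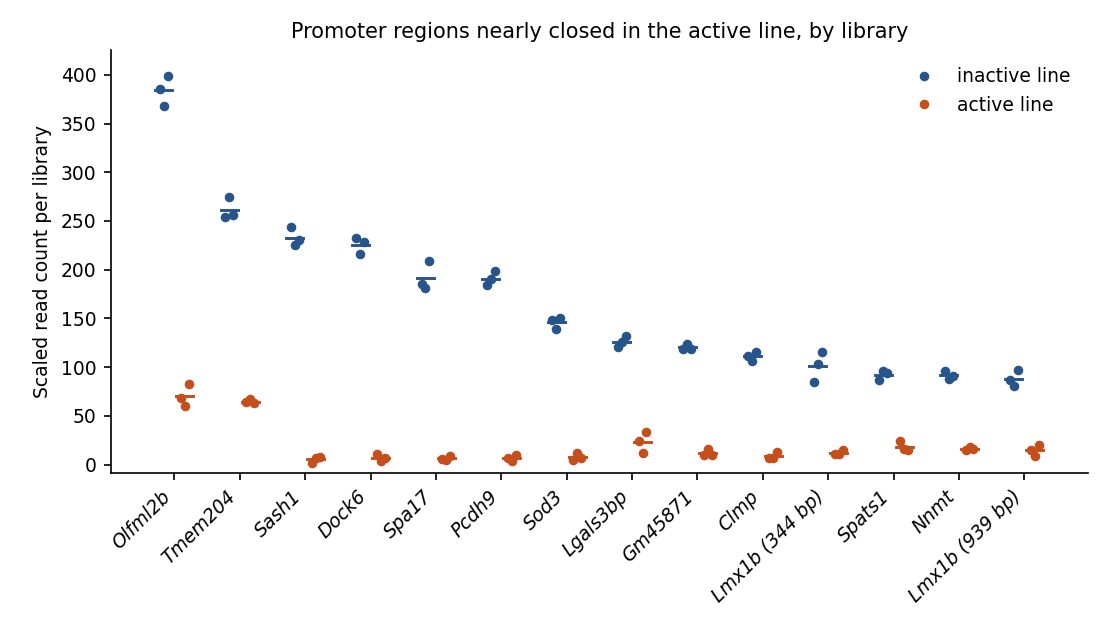
Scaled read count of each library at the 14 nearly closed promoter regions of named genes with the highest inactive level, blue for the inactive and orange for the active line; short bars are means of 3 libraries, and Lmx1b has 2 such regions, marked by their distance to the start. Olfml2b and Tmem204 keep 60 or more in each active library, and at Lgals3bp the highest active library reaches 34. The libraries of the 2 lines overlap at none of them, which the rule favours. The same separation, with the active line lower, was found in 16089 of all 52957 regions.

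Most genes with a nearly closed region had no second region in the table. Of the 46 genes, 31 had 1 region and 15 had several. In 4 of the 15, Sash1, Sod3, Nnmt and Cnnm1, every region was nearly closed, and in 11 only some were. These 11 had 14 other regions tested by limma, of which 11 were called lower, beside 29.2% of all tested regions. In 6 genes the promoter region was among these others while a region further off was nearly closed.

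Kif16b, a kinesin that moves early endosomes, read 116, 131 and 135 against 225, 204 and 215 at its promoter, a log2 difference of -0.75 (SE 0.095), and 6, 4 and 5 against 70, 67 and 82 at a region 1480 bp from the start. Uvrag, a regulator of autophagy and endosomes, read 574, 550 and 571 against 684, 716 and 675 at its promoter and 22, 16 and 26 against 87, 84 and 113 at 2296 bp. Arfgap1, which switches off the Golgi GTPase Arf1, read 184, 198 and 191 against 236, 240 and 220 at its promoter and 25, 18 and 16 against 90, 115 and 88 at 2045 bp. In each pair the promoter kept more than the distal region, at ratios of 0.593, 0.817 and 0.823. Dnah6 showed the opposite order. Its promoter was nearly closed, and a region 1498 bp away read 170, 159 and 186 against 190, 167 and 154, with overlapping libraries.

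The strongest nearly closed regions of all had no gene. A region at chr16:15541482-15542272 read 88, 76 and 91 against 395, 421 and 418, 85.5 kb from the Mcm4 region. Another at chr2:38876442-38878073, the widest of the set, read 103, 78 and 106 against 412, 416 and 400, 9.29 kb from the Wdr38 region. They kept 20.7% and 23.4%. A region at chr11:7373437-7374215, 727.8 kb from the nearest region open in both lines, read 8, 14 and 7 against 385, 383 and 337, and kept 2.62%.

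A region at chr16:4370561-4371385 lay 4.53 kb from the Tfap4 region and read 64, 76 and 101 against 343, 368 and 345. One at chr16:25192818-25193348 read 55, 67 and 53 against 280, 274 and 287. A region at chr16:4476459-4477342 read 46, 32 and 45 against 228, 250 and 243, and its neighbour at chr16:4470713-4471267 read 45, 53 and 53 against 220, 214 and 230. One at chr18:46808392-46809912 read 46, 53 and 55 against 268, 261 and 240. In all of these the active libraries kept a clear signal, at 17.1% to 22.8% of the inactive level.

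The most closed region was at chr6:78673375-78673883. It read 0 in all 3 active libraries and 67, 70 and 75 in the inactive ones, the only region of the 348 at 0 in every active library. A region at chr12:47164314-47164616 read 1, 0 and 0 against 53, 49 and 58. These 2 lay in runs of neighbouring regions that all had low ratios.

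A run was taken as 5 or more consecutive regions of the table, at any level, that all had a ratio of 0.25 or less. There were 14 such runs with 113 regions, 60 of them among the 348 (17.2%), and they spanned 20.2 to 1057.7 kb each and 4484.5 kb together. The other low regions were scattered: of 711 stretches of consecutive regions at or below that ratio, 639 were single. Members within runs had lower ratios than the others. Their median ratio was 0.0502 beside 0.184 outside, and 50% of them were at 0.05 or less beside 5.90%. Of the 47 regions at 0.05 or less in the set, 30 were in runs. In the opposite direction there were 75 runs, with 250 of the 1409 regions (17.7%).

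The longest run by number covered 209.3 kb around Sash1, chr10:8636363-8845657, with 14 regions, 5 of them in the set. Summed over the run, the active libraries held 45, 42 and 44 scaled reads and the inactive ones 829, 828 and 815, so 5.30% was left. The regions next to it on both sides were higher in the active line: the one on the left, at Ust, had means of 91.0 and 53.3, and the one on the right 132.3 and 61.3. Those neighbours were far off, since the table lists no region for 241.5 kb to its left and 527 kb to its right.

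A run of 11 regions over 695.9 kb, chr7:103510217-104206082, held the Trim30 family, tripartite-motif proteins of innate immunity, and 2 olfactory receptor genes. Its libraries summed to 24, 19 and 24 against 376, 428 and 464. Trim30a read 5, 2 and 1 against 47, 76 and 83 at its promoter, Trim12c 2, 2 and 3 against 57, 56 and 49, Trim30d 1, 0 and 2 against 36, 41 and 45, and a region 4144 bp from Or52h7 2, 0 and 1 against 39, 45 and 46. These genes belong to families of near-identical copies, and how reads that fit several copies were counted is not given in the sources used here, so the values of single genes there are uncertain.

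The longest run in kb, 1057.7, ended at the Pcdh9 promoter, chr14:93071020-94128731, with 11 regions and 3 in the set. Its sums were 16, 17 and 26 against 409, 407 and 397. Apart from the promoter its regions were weak, the next at an inactive mean of 43.7. On the same chromosome a run at chr14:13011578-13224441 had 8 regions, 7 of them in the set and none with a gene, and kept 5.44%.

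Compact runs lay at single genes. At Sod3, chr5:52504237-52524420, all 5 regions within 20.2 kb were in the set, with sums of 17, 21 and 33 against 380, 385 and 424. At Nnmt, the enzyme that methylates nicotinamide, 6 regions in 43.3 kb, chr9:48486977-48530250, summed to 84, 81 and 74 against 631, 627 and 624. Its strongest region was not the promoter, which read 15, 18 and 16 against 96, 88 and 91, but chr9:48529336-48530250, 7.86 kb from the last Nnmt region, at 41, 34 and 35 against 322, 335 and 321. Lmx1b, chr2:33475156-33532553, had 7 regions in 57.4 kb and kept 14.3%, the most of the 14 runs. Nnmt kept 12.7% and Sod3 5.97%.

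Cnnm1, a metal transport mediator of the cyclin M family, lay in a pair of runs on chromosome 19 that were separated by only 2 regions, with ratios of 0.282 and 0.257. The first, chr19:42936667-43334797, had 8 regions over 398.1 kb, and the second, chr19:43404009-43466140, 8 over 62.1 kb. A region 5047 bp from the Cnnm1 start read 5, 2 and 2 against 120, 143 and 115, and one at 4317 bp 6, 2 and 8 against 62, 78 and 64. The remaining runs held no named gene. That at chr6:78524512-78677328 read 9, 8 and 10 in sum against 382, 357 and 364 over 7 regions (2.45% left), and that at chr12:46782900-47266616 kept 2.31% over 8 regions. The others lay on chromosome 11, with 8 regions over 245.3 kb, chromosome 4, with 7 over 421.5 kb, and chromosome 5, with 5 over 424.3 kb.

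**Figure D4:**
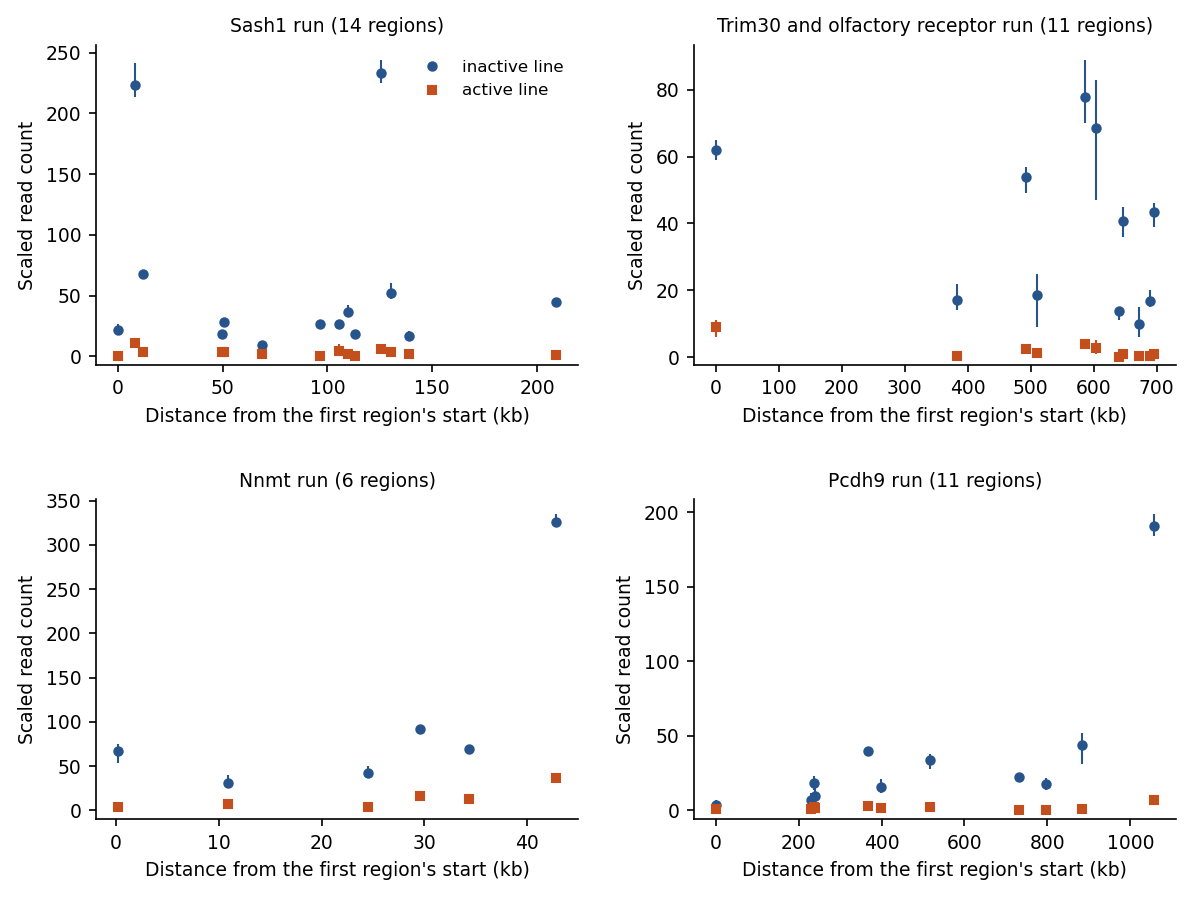
Mean scaled read count of each region in 4 runs of consecutive closed regions, against its distance in kb from the run's start; circles are the inactive and squares the active line, and vertical lines span the 3 libraries. In strong and weak regions alike the active line is low: its means stay at or below 11 in the Sash1 run and at or below 36.7 in the Nnmt run.

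Away from runs most nearly closed regions had no other within 50 kb. Another of the 348 lay within 50 kb of 76 of them (21.8%), and within 1 Mb of 182 (52.3%), and the median gap was 839.2 kb. Without the runs, 30 of 288 (10.4%) had one within 50 kb. Low neighbours were still more frequent there than elsewhere. Of adjacent listed regions, 9.74% were at 0.25 or less, beside 1.355% around other regions at 40 or more. Joining at gaps of up to 50 kb gave 272 single regions and 27 clusters of 2 or more, none with over 5 regions. In the opposite direction, among 1409 regions, 35.7% had another within 50 kb. That set is larger, so the 2 shares are not a like comparison. Of 2126 stretches of 1 Mb with a region at 40 or more in the inactive line, 255 held a nearly closed one, 204 of these just 1.

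A few clusters lay outside runs. At chr2:92254166-92258545, 4 of the regions lay within 4.4 kb, 5.42 kb from the Cry2 region, and together fell from an inactive sum of 442.3 to an active sum of 58.0. At chr4:138666863-138669819, 2 regions within 3.0 kb between Otud3 and Tmco4 had sums of 359 and 45.3. At chr6:127842296-127887911, 3 of 5 regions over 45.6 kb were in the set.

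The chromosomes differed in their share. Chromosome 9 had 38 nearly closed regions among 1589 at 40 or more (2.39%), chromosome 18 had 24 of 1107 (2.17%) and chromosome 2 had 49 of 2553 (1.92%). The lowest shares were 3 of 1379 (0.218%) on chromosome 15, 2 of 776 (0.258%) on X and 6 of 1659 (0.362%) on chromosome 3. Without the regions in runs the first 3 remained at 2.08%, 2.17% and 1.72%. Chromosome 11, which carries Actg1, had 24 of 2126 (1.13%).

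Whole stretches of chromosomes differed between the lines, and the share followed them. In 10 Mb windows whose median log2 ratio of active to inactive was -0.6 or less, 3.51% of the regions at 40 or more were nearly closed (23 of 656). The share was 2.20% at -0.6 to -0.3, 1.09% at -0.3 to 0, 0.907% at 0 to 0.3 and 0.457% above 0.3 (19 of 4155). Yet 66 of the 348 lay in windows at 0 to 0.3 and 19 in windows above that. Dividing every region by its window's median left 304 regions in the set, 282 of them shared with the 348.

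Regions open in both lines, defined as at least 40 in each with a ratio between 0.8 and its inverse, numbered 16116 and served as landmarks. The nearest lay at a median of 57.0 kb from a nearly closed region and of 20.4 kb from the other regions at 40 or more. Within 10 kb there was one for 64 of the 348 (18.4%), beside 33.4% of the others, and within 1 kb for 4 (1.15%), beside 6.02%. More than 100 kb separated 123 (35.3%) from any, beside 14.03%. The 60 regions in runs raise these distances, since a run by its definition holds no region open in both lines. Without them the median was 33.2 kb, and 23.3% lay more than 100 kb from any.

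Regions in runs and outside them are given apart for that reason. Those in runs lay at a median of 614.6 kb from an open one, and the others at 33.2 kb, with 22.2% within 10 kb. The definition of a run favours the larger distance, so nothing is read from this difference. Among regions without a gene and with an inactive mean of 40 to 100, the median was 29.0 kb for the 176 outside runs and 24.8 kb for the 9061 others, and 23.9% beside 28.3% lay within 10 kb. At a like level and location, and outside runs, the distances were therefore closer.

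Nearly closed regions also stood directly beside steady ones. Outside runs, the next listed region on either side was steady, with a ratio between those same limits, in 27.7% of 575 cases, between 0.25 and 0.8 in 49.9%, at 0.25 or less in 9.74% and higher in the active line by more than that in 12.7%. Around other regions at 40 or more these shares were 43.0%, 29.2%, 1.355% and 26.4%. Also outside runs, both adjacent regions were steady for 29 of 288 (10.07%), beside 20.3% of the others. At least 1 was higher by more than that for 70 (24.3%), beside 42.2%. With the regions in runs included, these were 29 of the 348 (8.33%) and 74 (21.3%). The closest example among named genes was Dnah6, whose steady region lay 0.939 kb from the nearly closed one.

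Regions near the nearly closed ones that were not themselves in the set were tested one by one. In limma's fit over all tested regions with Benjamini-Hochberg adjustment at 0.05, 721 of the 1308 other regions within 50 kb were called lower in the active line (55.1%) and 163 higher (12.5%), beside 29.2% lower and 30.9% higher over all tested regions. Their median log2 difference was -0.38. The share fell with distance. It was 63.1% up to 10 kb (188 of 298), 52.8% from 10 to 50 kb (533 of 1010), 40.4% from 50 to 200 kb (1080 of 2670) and 27.3% beyond (12808 of 46927).

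Regions called higher ran the other way, from 8.72% up to 10 kb and 13.6% from 10 to 50 kb to 32.2% beyond 200 kb. Without the regions in runs, 700 of 1287 (54.4%) were called lower within 50 kb. After centring on 10 Mb windows, which takes out the median of each fixed window, 527 (40.3%) were, beside 21.9% of all regions outside the set. Shifts that are shorter than a window or have a border inside it remain. The libraries of a line share whatever differs along its chromosomes, so these neighbours are not independent of each other, and the shares carry no test of their own.

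**Figure D5:**
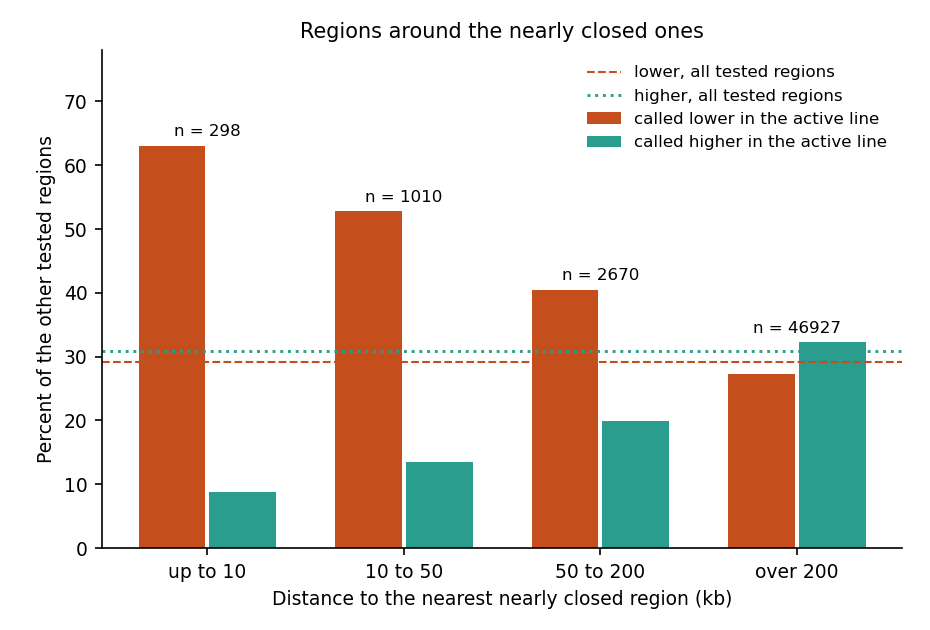
Percent of tested regions outside the set that limma called lower (orange) or higher (green) in the active line, by distance in kb to the nearest nearly closed region; lines give the shares over all tested regions. The share called lower falls from 63.1% up to 10 kb to 27.3% beyond 200 kb.

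Promoters nearest to distal nearly closed regions were looked at separately. The 306 regions that were not promoters had 249 different nearest promoters outside the set and at 40 or more, at a median of 92.2 kb. Of these 129 (51.8%) were called lower and 30 (12.05%) higher, beside 39.0% and 19.99% of all 9876 such promoters and 36.6% lower of all 11143 tested promoter regions. Their median log2 difference was -0.18, and 57.8% of them were open in both lines, beside 66.4%. Most of these 249 promoters were thus open at a like level in both lines, though a smaller share than among all such promoters. Nearer promoters that were in the set or under 40 could not be counted here.

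Markers of the cell type were not among the nearly closed regions, but only 0.424% of all promoters at 40 or more were. With so few markers, nothing is read from their absence. Of 14 fibroblast genes 10 had a promoter region in the table, 9 of them at 40 or more in both lines, with summed scaled counts that ranged from 3034 to 3226 over the active libraries and from 3776 to 3964 over the inactive ones. Of the epithelial, endothelial, blood, muscle and neural markers, Krt8, Kdr, Cd14 and Gfap had one, and the other markers had none listed. Kdr, the endothelial receptor, read 81, 74 and 82 against 6, 5 and 9, and Krt8, an epithelial keratin, 136, 171 and 134 against 78, 89 and 88. The other 2 were lower in the active line. Cd14 read 211, 235 and 214 against 279, 257 and 300, and Gfap 34, 23 and 25 against 34, 41 and 45. Most fibroblast promoter regions were lower too, as at Vim (mean 668.7 beside 986). Those of Col1a2 (234 beside 158), Twist1 (383.7 beside 336) and Col3a1 (34.3 beside 29.7) were higher. Whether any of these moved with the nearly closed regions for a shared reason was not tested.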

How the data were processed

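ATAC-seq was measured in 6 NIH3T3 libraries, 3 per line. What the authors deposited is a score per region, namely its reads scaled by library and rounded to whole numbers; these are not raw counts, and no count model was used. Trimmomatic 0.39, STAR 2.7.11a, Picard 3.1.1, featureCounts, DESeq and DESeq2 1.36.0 and the build mm39 are named in the submitters' processing notes; how regions were called and merged is not given in the sources used here. Because regions were listed once for both lines, a region can be near 0 in one of them.

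The members and lists were chosen with earlier results of these data known. Members were taken on group means and described without a test. Gene names and distances are those of the table. The text names the 20 members with a symbol that were highest in the inactive line, the 5 with the lowest ratio, up to 4 per gene list, genes with 2 or more members, the named members of the 6 largest clusters, the 8 highest without a symbol, and the 3 nearest each limit; Spa17 apart, the cilia and germ cell genes, and Adm, Kif16b, Rab40b, Trim12c, the paired regions of chromosome 16, the 2 regions of lowest ratio without a gene, the smaller clusters and the non-member regions of named genes were added after their values were seen.

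Other regions were tested with limma 3.58.1 in R 4.3.3 on log2(value + 1) over 51253 regions whose mean reached 10, with trend and robust variance, no covariate, and Benjamini-Hochberg adjustment at 0.05. Alternatives changed the limits of the rule, the normalization, the low-value filter, the pseudocount, the distances and the replicates. The totals of 6433944 to 6548535 are alike because of the scaling, so the depth of each library is unknown, and no floor was set on values at 0. The binomial interval covers counting error over regions only.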

Additional observations from a re-analysis of the deposited data

How the results depend on the processing

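The number of members, 348, was 196 with an inactive mean of at least 60 and 206 when the highest active library had to be at most 0.25 times the lowest inactive one; the other settings stayed within 1.5 times, from 233 at a ratio of 0.20 to 514 at 0.30, and 340 to 385 without 1 library. The promoter share of 12.1% moved by less than its interval under all 19 alternatives. The median width of 496.5 bp was 452.5 with an inactive mean of at least 30 and 542.5 with at least 60. The median distance to a region open in both lines, 57.0 kb, was 75.3 kb at a ratio of 0.20, 86.0 kb under the rule on the highest active library, 30.6 kb with open taken as a ratio of 0.67 to 1.5, 84.4 kb with open taken as 100 or more, and 33.2 kb with the runs left out, a setting chosen after seeing the data. The share with another member within 50 kb, 21.8%, was 17.2% at 25 kb, 27.6% at 100 kb and 10.4% with the runs left out. Neighbours called lower numbered 721 of 1308 within 50 kb, 188 of 298 within 10 kb, 1152 of 2317 within 100 kb, 636 to 717 without 1 library, 638 without the variance trend and 790 after quantile normalization.

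Both lines carry replicate numbers 1 to 3. Deviations from the group means of same-numbered libraries had correlations of 0.00137, -0.006 and -0.0162, so the numbers were not taken as pairs; with a replicate block 723 neighbours were called lower. Values near 0 in the active line rest on few reads per library, and ratios under 0.05 are imprecise.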
